A study of Homo sapiens with 6 samples.

Results

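The genes described here encode the factors that start protein synthesis on messenger RNA (eukaryotic initiation factors, eIFs) and those that move the ribosome along it (elongation factors, eEFs). They were chosen by name: every protein-coding gene whose symbol begins with EIF1 to EIF6, EEF1 or EEF2, leaving out the EIF2AK kinases and EEF1E1. The rule found 63 genes among the 58219 gene identifiers counted in each library, and 59 of them passed the filter on low counts, which kept 14239 genes in all. EIF4EBP3, EIF4E1B, EEF1G and EIF1AY did not pass it. RNA came from SNU-387, an established cell line from a pleomorphic human hepatocellular carcinoma. The study compared cells that stably express a non-target short hairpin RNA (shNT, n = 3) with cells that stably express a hairpin against YES1 (shYES1, n = 3), so both groups carry a hairpin and neither is unmodified. YES1 encodes a tyrosine kinase of the SRC family. The sources used here give neither the sequence of the YES1 hairpin nor the number of hairpins, and no label states that samples sharing a group were separate cultures.

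Initiation begins when eIF2, loaded with GTP and the initiator tRNA, joins the small ribosomal subunit together with eIF1, eIF1A, eIF3 and eIF5. The eIF4F complex (the cap-binding protein eIF4E, the scaffold eIF4G and the helicase eIF4A) brings this particle to the capped 5′ end of a messenger RNA, and eIF5B then joins the large subunit. During elongation eEF1A delivers aminoacyl-tRNA, eEF1B recharges eEF1A with GTP, and eEF2 moves the ribosome by a codon. The activity of these factors is a known control point of growth in liver cancer and other tumours. It is set chiefly through phosphorylation of eIF2 and of the eIF4E-binding proteins, which RNA counts do not measure.

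The libraries held 11290889 to 18944148 gene reads each. YES1 had 178, 181 and 180.0 CPM in shNT samples 1 to 3 and 42.9, 43.3 and 46 CPM in shYES1 samples 1 to 3, where CPM is a gene's count relative to the TMM-scaled size of its library. It fell by 2.02 on the log2 scale (standard error 0.037, edgeR adjusted p = 7.93e-40). Of 8 hepatocyte markers only SERPINA1 averaged at least 1 CPM, and TTR, HNF4A, CYP3A4 and TAT had no read in any library. All 4 mesenchymal markers, 3 of 4 biliary and 2 of 4 endothelial markers passed 1 CPM, and none of 4 leukocyte and 2 fetal liver markers did. Summed, the mesenchymal markers were lower in every shYES1 library than in every shNT library, a sum that is mostly FN1. FN1 and VIM fell by 0.72 and 0.94 on the log2 scale, while COL1A1 and COL1A2 rose by 0.17 and 0.18, and their part in the results below was not tested.

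Across the 59 tested translation factor genes, CPM rose for the eIF4G scaffolds and fell for EEF1A1, EEF1B2, EEF1D and EEF2. The largest falls were those of 3 subunits of eIF3. At an edgeR quasi-likelihood p adjusted by Benjamini-Hochberg over all genes under 0.05, 43 of the 59 (72.9%) were called, beside 65.3% of all 14239 genes tested. In shYES1, 19 members (32.2%) were higher, where 32.5% of all genes were, and 24 (40.7%) were lower, where 32.8% of all genes were. The 16 others were not called. The members' values in the shNT and shYES1 libraries did not overlap for 42 genes (71.2%), beside 67.9% of all genes. The share called among the members was therefore near that of all genes. In bulk RNA a fall in every cell and fewer cells that express a gene cannot be told apart. Log2 fold changes ran from -1.50 (EIF3B) to 0.81 (EIF4G3) with a median of -0.031, where the median of all genes was -0.0047. In a test against a change of at least 1.2-fold, 23 members passed (39.0%, with 7 higher and 16 lower), beside 36.4% of all genes. Called members that did not pass it were EIF1, EIF1B, EIF1AD, EIF2S2, EIF2S3, EIF2B5, EIF3D, EIF3G, EIF3H, EIF3I and EIF3L. The others of these 20 were EIF4A2, EIF4E, EIF5, EIF5B, EIF5A, EIF5A2, EEF1A1, EEF2 and EEF2K. The split by direction depended on scaling: with library size alone 26 members were higher and 21 lower (all genes 5799 and 3762), and with scaling on genes without a sequence described below 14 were higher and 30 lower (all genes 3580 and 5673). The plot of log2 fold change by complex shows all 59 genes.

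**Figure D1:**
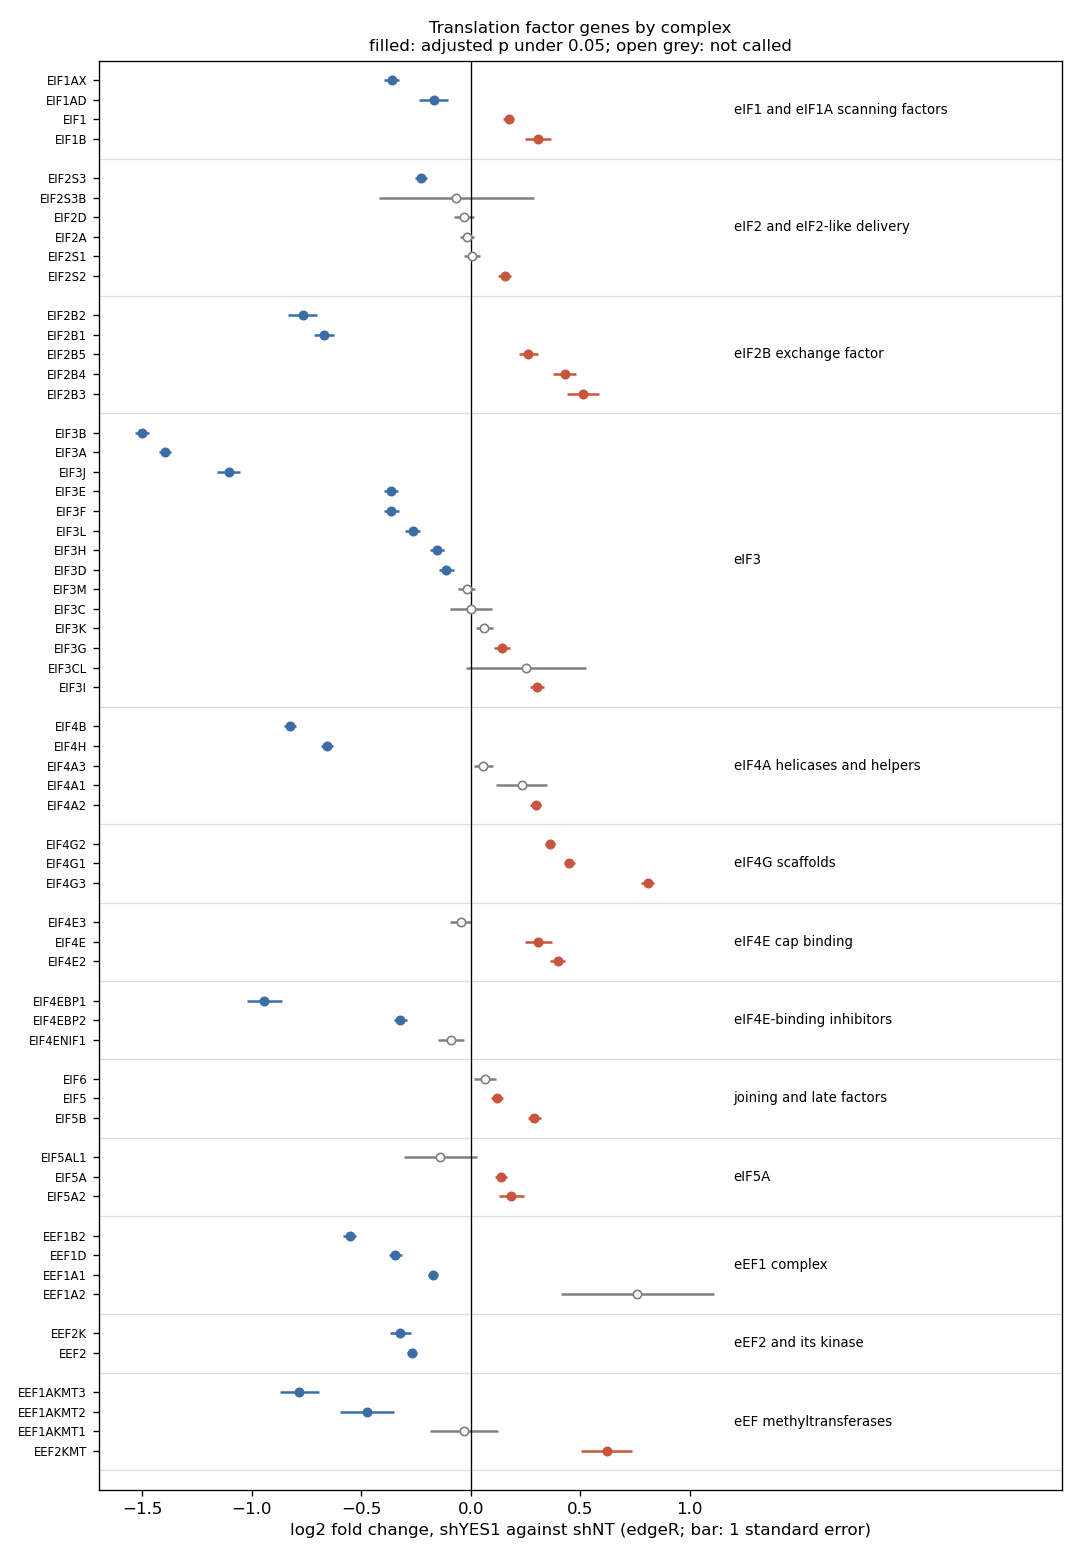
Log2 fold change (shYES1 against shNT, edgeR, horizontal axis) of each tested translation factor gene, grouped by complex, with bars of 1 standard error; filled points have an adjusted p under 0.05 and open grey points do not. EIF3B, EIF3A and EIF3J lie furthest to the left, between -1.50 and -1.11, and the 3 eIF4G genes lie together on the right, between 0.36 and 0.81.

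Many transcripts of the translation machinery begin with a C followed by a run of pyrimidines, the terminal oligopyrimidine motif through which mTORC1 and LARP1 are known to control their translation. The 250 bases before and 50 bases after each annotated start were given by RefSeq (GRCh38.p14) for 50 of the 63 members. A start at C followed by at least 4 further C or T bases, read on the strand of the gene only, was present in 13 of these 50 genes (26%), where 5.14% of all 27305 genes in the table had one. Counted over starts it was 13 of 67 (19.4%), beside 4.07% of all 35116 starts. The windows below show 25 bases before the annotated start and 15 bases from it, 5′ to 3′, with the pyrimidine run from the start in capitals. The first 7 are pyrimidine starts of members described below, and the last 3, with no capitals, are listed starts of members that changed and lack the run.
EEF1A1, chr6:73521018-73521057, minus strand: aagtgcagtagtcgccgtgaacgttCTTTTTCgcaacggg
EEF2, chr19:3985449-3985488, minus strand: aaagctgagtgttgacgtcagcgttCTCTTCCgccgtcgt
EEF1B2, chr2:206159870-206159909, plus strand: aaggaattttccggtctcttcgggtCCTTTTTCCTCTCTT
EIF4B, chr12:53006431-53006470, plus strand: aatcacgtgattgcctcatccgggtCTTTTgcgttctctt
EIF3F, chr11:7987312-7987351, plus strand: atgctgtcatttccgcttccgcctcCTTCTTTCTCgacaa
EIF2S3, chrX:24054931-24054970, plus strand: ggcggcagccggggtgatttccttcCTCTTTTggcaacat
EIF4A2, chr3:186783552-186783591, plus strand: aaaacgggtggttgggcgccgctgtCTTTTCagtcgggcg
EIF3B, chr7:2354802-2354841, plus strand: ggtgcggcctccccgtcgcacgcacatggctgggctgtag
EIF3J, chr15:44537122-44537161, plus strand: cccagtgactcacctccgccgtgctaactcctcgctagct
EIF3I, chr1:32222382-32222421, plus strand: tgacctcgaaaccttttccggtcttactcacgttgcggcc

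The 7 members shown with a pyrimidine run serve initiation and elongation, and 6 further members had such a start (EIF3D, EIF3K, EIF3M, EIF2A, EIF2D and EIF2S3B). Of these 13 genes 7 were lower, 1 was higher (EIF4A2) and 5 were not called, with a median log2 fold change of -0.11. The share called was 61.5%, beside 65.3% of all genes, and the share lower 53.8%, beside 32.8%. Genes outside the members with such a start were not summarised, so these shares are not set against theirs. EIF2S3B, among those not called, had only 7 to 15 reads per library. Of the 33 tested members with listed starts but no pyrimidine start, 15 were higher (45.5%), 10 lower (30.3%) and 8 not called, with a median of 0.065. A run at an annotated start is a description of the letters there, the starts used in these cells were not measured, and the part of the run in the changes was not tested.

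The eIF1 and eIF1A proteins sit on the small subunit and let it scan for the start codon. EIF1, the most abundant transcript of the group at 331 ± 5.41 TPM in shNT (SD, n = 3), had 329, 334 and 336 CPM in shNT and 378, 380.5 and 369.6 CPM in shYES1. The values did not overlap and the rise was 0.17 (standard error 0.026, edgeR adjusted p = 8.05e-08). TPM divides reads by exon length, so it is used here to compare genes with each other. EIF1B, its close relative, had 23.3, 25 and 25.6 CPM in shNT and 30.3, 29.4 and 31.7 CPM in shYES1, a rise of 0.31 (standard error 0.061, edgeR adjusted p = 2.02e-05). EIF1AX, the X-linked gene for eIF1A, went the other way and fell by 0.36 on the log2 scale, from 114 to 115 CPM in shNT to 87.1 to 91.9 CPM in shYES1 (edgeR adjusted p = 9.7e-13). EIF1AD, which encodes a protein with an eIF1A-like domain, fell by 0.17 with overlapping groups (edgeR adjusted p = 0.0244). That call was lost when shNT sample 3 (adjusted p = 0.120), shYES1 sample 2 (0.161) or shYES1 sample 3 (0.0859) was left out, and also with library-size scaling, with DESeq2 and without the low-count filter.

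The subunits of eIF2, which carries the initiator tRNA, changed little. EIF2S3, the gamma subunit that binds GTP and the tRNA, had 258, 244 and 251 CPM in shNT and 217, 215 and 211 CPM in shYES1, and fell by 0.23 on the log2 scale (standard error 0.028, edgeR adjusted p = 1.62e-09). Every shYES1 value lay below every shNT value. EIF2S2, the beta subunit, rose from 144 to 146 CPM in shNT to 161 to 163 CPM in shYES1, by 0.15 (edgeR adjusted p = 1.97e-05), a call lost with scaling on genes without the sequence described below (adjusted p = 0.0615). EIF2S1, the alpha subunit whose phosphorylation shuts down general initiation, overlapped between groups, at 82.2 to 86 CPM in shNT and 82.1 to 85.2 CPM in shYES1 (edgeR adjusted p = 0.922). EIF2A and EIF2D, factors that can deliver tRNA without eIF2, also overlapped, with log2 fold changes of -0.016 and -0.031. EIF2S3B, a close copy of EIF2S3 on chromosome 12, had only 7 to 15 reads per library. EIF2S1 was higher with library-size scaling (log2 fold change 0.10, edgeR adjusted p = 0.0165) and lower with scaling on genes without the sequence described below (-0.085, adjusted p = 0.0457), so its direction depended on the scaling.

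eIF2B is the exchange factor that reloads eIF2 with GTP and is the target of phosphorylated eIF2. Its 5 subunits split by direction. EIF2B3, EIF2B4 and EIF2B5 were higher (60%, beside 32.5% of all genes), and EIF2B1 and EIF2B2 were lower (40%, beside 32.8%). No subunit overlapped between the groups, nor did 67.9% of all genes. EIF2B2, the beta subunit of the regulatory core, had 27.5, 26.5 and 28.1 CPM in shNT and 16.7, 15.9 and 15.6 CPM in shYES1. It fell by 0.77 on the log2 scale (standard error 0.068, edgeR adjusted p = 6.26e-14). EIF2B1, the alpha subunit of the same core, had 63.2, 61.7 and 64.9 CPM in shNT and 38, 39.9 and 41.2 CPM in shYES1, a fall of 1.59-fold (edgeR adjusted p = 2.86e-17). In the control cells EIF2B1 had the highest length-scaled level of the complex, 62.8 ± 0.62 TPM, where the 4 other subunits had 17.4 to 28.5 TPM (SD, n = 3).

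The catalytic pair of eIF2B rose together. EIF2B3, the gamma subunit, had 15.4, 16.8 and 17.2 CPM in shNT and 23.5, 22.1 and 24.5 CPM in shYES1, a rise of 0.51 (standard error 0.072, edgeR adjusted p = 2.21e-08). EIF2B5, the epsilon subunit that holds the exchange activity, rose by 0.26, from 54.8 to 58.9 CPM in shNT to 64.8 to 69.9 CPM in shYES1 (edgeR adjusted p = 8.36e-07), and did not pass the test against 1.2-fold. EIF2B4, the delta subunit of the regulatory core, rose with them and not with its neighbours EIF2B1 and EIF2B2, from 35, 33.9 and 32.3 CPM in shNT to 45.4, 43.5 and 46.3 CPM in shYES1. Its change was 0.43 (standard error 0.052, edgeR adjusted p = 7.97e-10).

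eIF3 is the largest initiation factor, a scaffold on the small subunit that binds eIF1, eIF4G and the messenger RNA. Of its 14 genes 8 were lower (57.1%, beside 32.8% of all genes), 2 higher (14.3%, beside 32.5%) and 4 not called, with a median log2 fold change of -0.13. EIF3B, which carries an RNA recognition motif and anchors the EIF3G and EIF3I subunits, had 252, 259.6 and 252 CPM in shNT and 88.8, 88.8 and 91.5 CPM in shYES1. It fell by 1.50 on the log2 scale, 2.83-fold (standard error 0.031, edgeR adjusted p = 1.33e-37), the largest fall of the 59 members. The gene lies on chromosome 7 at 2354086 to 2380745 (GRCh38, GENCODE 29).

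EIF3A, the largest subunit, which links the core of eIF3 to EIF3B, had 439, 418 and 430.1 CPM in shNT and 160.2, 166 and 162 CPM in shYES1. It fell by 1.40 on the log2 scale, 2.64-fold (standard error 0.028, edgeR adjusted p = 2.86e-38), and lies on chromosome 10 at 119033670 to 119080823. EIF3J, a loosely bound subunit that helps eIF3 engage the small ribosomal subunit, had 65, 60.3 and 69.8 CPM in shNT and 30.1, 32.2 and 29.2 CPM in shYES1. It fell by 1.11 on the log2 scale, 2.15-fold (standard error 0.053, edgeR adjusted p = 2.86e-23). In all 3 genes the highest shYES1 library was far below the lowest shNT library.

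The remaining subunits of the eIF3 core moved less. EIF3E and EIF3F each fell by 0.36 on the log2 scale, EIF3L by 0.27, EIF3H by 0.15 and EIF3D by 0.11. EIF3E had 160.1 to 162 CPM in shNT and 123 to 128 CPM in shYES1, and EIF3F had 119 to 126 CPM and 94.8 to 97 CPM. EIF3D, which can itself bind the cap of selected messenger RNAs, overlapped between groups, and with library-size scaling the calls of EIF3D (edgeR adjusted p = 0.703) and EIF3H (0.108) were lost. EIF3K and EIF3M were not called. Of the exons of EIF3L, 1767 bases overlap AL022311.1 on the same strand, so its counts are uncertain.

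EIF3I and EIF3G, the subunits that EIF3B anchors, did not fall with it, unlike EIF3A. EIF3I, a WD-repeat subunit, had 161, 169 and 163 CPM in shNT and 210.5, 201 and 197 CPM in shYES1, a rise of 0.30 (standard error 0.031, edgeR adjusted p = 5.91e-12). EIF3G, the RNA-binding subunit beside it, rose by 0.14, from 88.1 to 96.1 CPM to 99.2 to 105 CPM, a call lost with scaling on genes without the sequence described below (adjusted p = 0.207). EIF3I also had the highest length-scaled level of eIF3 in control cells, 343 ± 13.2 TPM, above EIF3A at 218 ± 4.95 TPM and EIF3B at 102 ± 3.22 TPM (SD, n = 3). With the length of the longest transcript in place of all exons EIF3B stood at 184 TPM and EIF3A at 175 TPM, so the order of those 2 is not settled. EIF3C and its near-identical copy EIF3CL share sequence, had 142 to 229 and 12 to 32 assigned reads per library, and are uncertain.

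**Figure D2:**
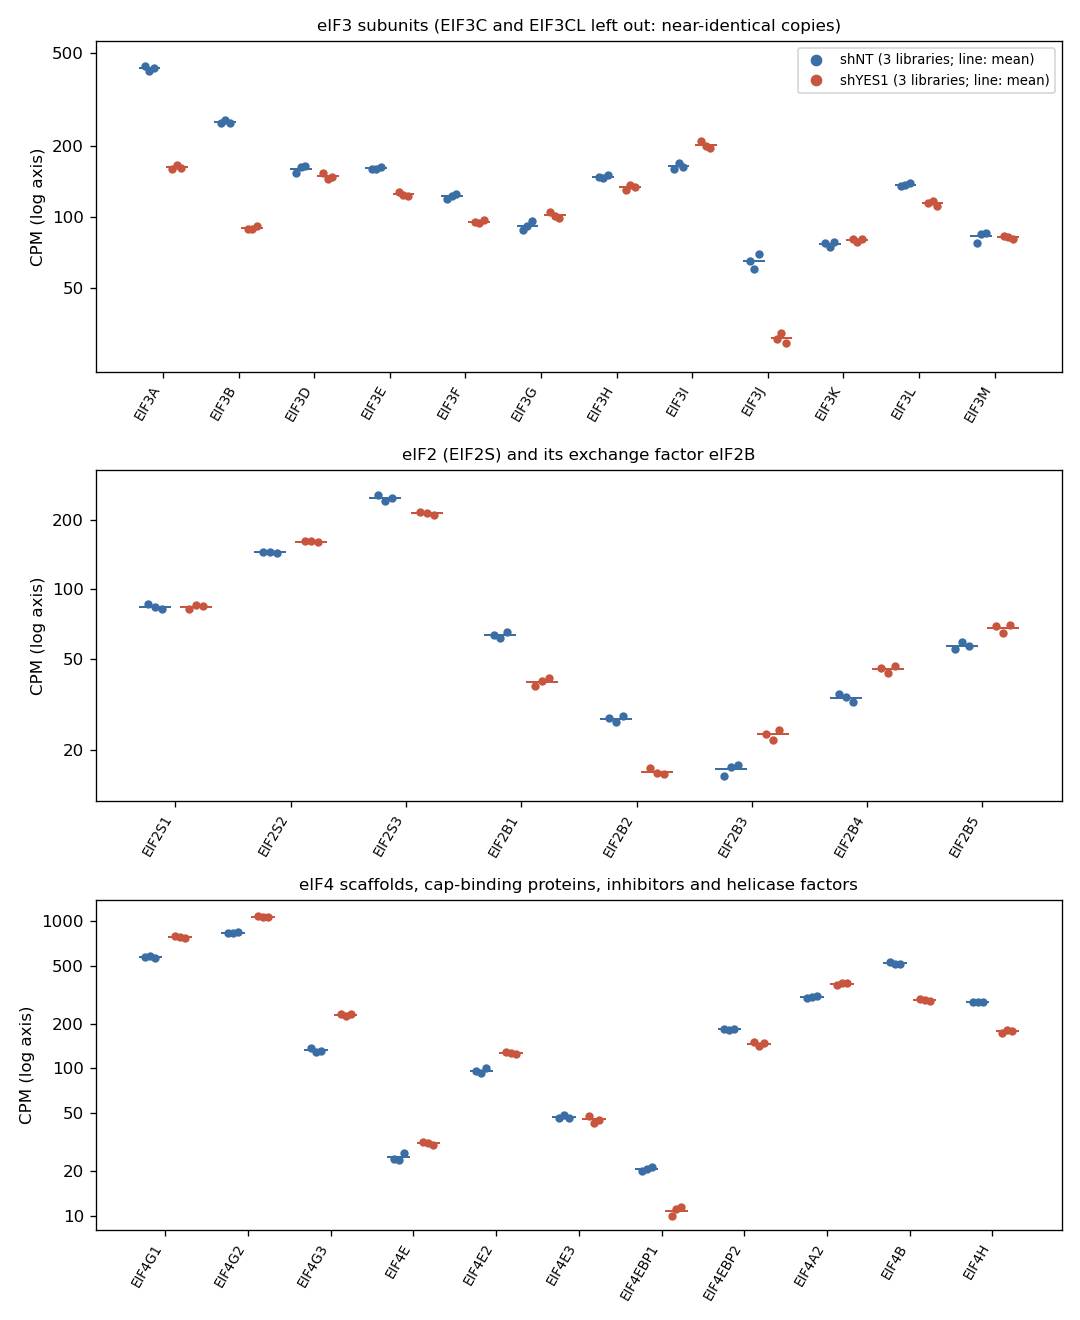
CPM (log axis) of members of eIF3, eIF2 with eIF2B, and eIF4 in each library; points are the 3 shNT (blue) and 3 shYES1 (red) libraries and lines are group means. EIF3A, EIF3B and EIF3J drop well below their controls, EIF2B1 and EIF2B2 fall while EIF2B3 to EIF2B5 rise, and all 3 eIF4G genes rise.

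The eIF4G proteins hold the cap-binding protein, the helicase and poly(A)-binding protein together, and all 3 genes rose. EIF4G3, which encodes the eIF4G paralogue also called eIF4GII, had 138, 129 and 131 CPM in shNT and 235, 227 and 234 CPM in shYES1. It rose by 0.81, 1.75-fold (standard error 0.031, edgeR adjusted p = 5.21e-27), the largest rise among the called members, and lies on chromosome 1 at 20806292 to 21176888. EIF4G1, the main scaffold, had 574, 583 and 562 CPM in shNT and 792, 784 and 771 CPM in shYES1, a rise of 0.45 (standard error 0.024, edgeR adjusted p = 3e-21). EIF4G2, a relative that lacks the eIF4E-binding region and serves cap-independent initiation, had 828, 834 and 847 CPM in shNT and 1087, 1066 and 1069.6 CPM in shYES1, a rise of 0.36 (edgeR adjusted p = 2.51e-18). All 3 were called higher, where 32.5% of all genes were. The groups were apart for each of these genes, as they were for 67.9% of all genes. The 3 rises also passed the test against 1.2-fold, which 36.4% of all genes passed in either direction.

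Among the cap-binding proteins EIF4E and EIF4E2 rose and EIF4E3 was not called. EIF4E, the rate-limiting cap-binding protein, had 24.4, 23.8 and 26.7 CPM in shNT and 31.7, 31.4 and 30.2 CPM in shYES1, a rise of 0.31 (standard error 0.061, edgeR adjusted p = 1.93e-05). EIF4E2, a cap-binding protein that represses translation of its targets, had 95.9, 92.8 and 101 CPM in shNT and 129, 127 and 126 CPM in shYES1, a rise of 0.40 (standard error 0.035, edgeR adjusted p = 6.43e-14). EIF4E3 had 46.3, 48.2 and 45.7 CPM in shNT and 47.7, 42.9 and 44.6 CPM in shYES1, and the groups overlapped. By length EIF4E was the lowest of the 3 tested genes of the family in control cells at 6.39 ± 0.297 TPM, below EIF4E3 at 15.6 ± 0.669 TPM and EIF4E2 at 48.4 ± 1.24 TPM (SD, n = 3).

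Of the proteins that hold eIF4E back, EIF4EBP1 and EIF4EBP2 fell and EIF4ENIF1 was not called. EIF4EBP1, an mTORC1 target that blocks the binding of eIF4G to eIF4E, had 20.2, 20.7 and 21.4 CPM in shNT and 9.98, 11 and 11.4 CPM in shYES1. It fell by 0.94 on the log2 scale, 1.92-fold (standard error 0.08, edgeR adjusted p = 1.72e-14). EIF4EBP2, its relative and the more abundant by length (91.8 ± 1.12 against 69.7 ± 1.54 TPM in shNT, SD, n = 3), had 186, 183 and 186 CPM in shNT and 152, 143 and 148 CPM in shYES1. Its fall was 1.25-fold (standard error 0.031 on the log2 scale, edgeR adjusted p = 7.91e-13). With the longest transcript as length EIF4EBP2 stood at 69 TPM and EIF4EBP1 at 55.2 TPM. EIF4ENIF1, which shuttles eIF4E to the nucleus, overlapped between the groups at 30.1 to 35.4 CPM in shNT and 29.9 to 32.6 CPM in shYES1, and was called lower only when shNT sample 1 was left out (edgeR adjusted p = 0.0346) or with scaling on genes without the sequence described below (0.00684).

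The helicase eIF4A unwinds the leader of the messenger RNA, and EIF4B and EIF4H stimulate it. EIF4B had 532, 512 and 510.4 CPM in shNT and 297, 294 and 285 CPM in shYES1. It fell by 0.83 on the log2 scale, 1.77-fold (standard error 0.026, edgeR adjusted p = 2.56e-30). EIF4H had 281, 285 and 281 CPM in shNT and 175, 184 and 179.8 CPM in shYES1, a fall of 1.58-fold (edgeR adjusted p = 4.33e-25). Both helper genes were thus lower in every shYES1 library, while EIF4A2, a helicase gene, was higher. EIF4A2 had 302, 304 and 311 CPM in shNT and 369.8, 379.6 and 378 CPM in shYES1, a rise of 0.30 (standard error 0.026, edgeR adjusted p = 5.77e-14). EIF4A3, the helicase of the exon junction complex, was not called.

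EIF4A1, usually the main helicase of eIF4F, cannot be read from these counts. It had 79 to 154 reads per library (6.38, 6.43 and 6.21 CPM in shNT, 7.06, 7.27 and 7.87 CPM in shYES1, edgeR adjusted p = 0.0739). Its exons share 1586 bases with the annotated read-through gene SENP3-EIF4A1 and 2186 bases with AC016876.2 on the same strand. A read that lies in exons of several genes is assigned to none. EEF1G, the gamma subunit of eEF1B, is in the same position: 2714 of its 2716 exon bases overlap the read-through gene AP002990.1. It had no read in any library, which sets no limit on its level, since reads in the shared exons are assigned to none. EIF4EBP3, which did not pass the filter, shares 507 of its 691 exon bases with ANKHD1-EIF4EBP3 on the same strand. Its low count is therefore uncertain too.

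The factors that act at and after subunit joining rose slightly or were not called. EIF5, which triggers GTP hydrolysis by eIF2 at the start codon, had 256, 259 and 275 CPM in shNT and 291, 281 and 286 CPM in shYES1, a rise of 0.12 (standard error 0.028, edgeR adjusted p = 0.000281). EIF5B, the GTPase that joins the large subunit, rose by 0.29, from 213 to 230.1 CPM in shNT to 270.2 to 274 CPM in shYES1 (edgeR adjusted p = 2.57e-12). EIF6, which keeps the subunits apart, overlapped between the groups at 43.6 to 49.2 CPM and 47.9 to 49.9 CPM. EIF5A, the hypusine-bearing factor that helps ribosomes through difficult peptide bonds, had 264, 270.4 and 269 CPM in shNT and 295, 291 and 298 CPM in shYES1, a rise of 0.14 (edgeR adjusted p = 1.24e-05). EIF5A2, a paralogue of it, had 31.7, 31.3 and 30.7 CPM in shNT and 33.1, 35.6 and 37.4 CPM in shYES1, a rise of 0.18 (edgeR adjusted p = 0.00427). The changes of EIF5, EIF5A and EIF5A2 lay below 1.2-fold and lost their calls with scaling on genes without the sequence described below (adjusted p = 0.369, 0.102 and 0.143), and EIF5A2 lost its call without shYES1 sample 3 (0.0754). EIF5AL1, a copy of EIF5A with 32 to 64 reads per library, was not called.

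EEF1A1 and EEF2 had the highest length-scaled levels of all members, and their CPM was lower in shYES1. EEF1A1, which delivers aminoacyl-tRNA, stood at 2876 ± 98.7 TPM in shNT and EEF2, the translocase, at 1300.3 ± 22.5 TPM (SD, n = 3), far above EIF4G2 at 348 ± 3.54, EIF3I at 343 ± 13.2 and EIF5A at 342 ± 7.4 TPM, which did not differ beyond their spread. With the longest transcript as length EIF5A stood at 479.9 TPM and EIF4G2 at 335 TPM, so the order after EEF1A1 and EEF2 is not settled. EEF1A1 had 4633, 4866 and 4749 CPM in shNT and 4251, 4253 and 4144 CPM in shYES1, a fall of 1.13-fold (standard error 0.023 on the log2 scale, edgeR adjusted p = 1.21e-08). EEF2 had 1461, 1450.4 and 1450.3 CPM in shNT and 1231, 1204 and 1182 CPM in shYES1, a fall of 1.21-fold (edgeR adjusted p = 4.57e-14). The CPM groups were apart for both genes, although neither change passed the test against 1.2-fold. In shYES1 EEF1A1 stood at 2796 ± 47.9 TPM, which did not differ from shNT beyond the spread, and EEF2 at 1181 ± 14.9 TPM.

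In the exchange factor of eEF1A, RNA of EEF1B2 and EEF1D fell by more than that of EEF1A1, while EEF1G could not be read. EEF1B2, its beta subunit, had 179, 175 and 180.0 CPM in shNT and 123, 124 and 118 CPM in shYES1, a fall of 1.47-fold (standard error 0.032 on the log2 scale, edgeR adjusted p = 2.08e-20). EEF1D, the delta subunit, fell from 195 to 202 CPM in shNT to 154 to 162 CPM in shYES1, 1.27-fold (edgeR adjusted p = 6.13e-14). EEF1B2 hosts small nucleolar RNAs, and its exons overlap SNORA41 by 132 bases. EEF1A2, the form of eEF1A usual in muscle and neurons, had 8 to 21 reads per library (0.808, 0.605 and 0.507 CPM in shNT, 0.67, 1.63 and 1.07 CPM in shYES1). It was not called (edgeR adjusted p = 0.0521), and it was called higher without shNT sample 1 (0.0383), without shYES1 sample 1 (0.0147), with library-size scaling (0.0281) and with the sample number as a block (0.0401).

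EEF2K, the kinase that inactivates eEF2 by phosphorylation, fell with its substrate, from 54.6 to 56.6 CPM in shNT to 42.1 to 46.3 CPM in shYES1, 1.25-fold (edgeR adjusted p = 6.75e-08). The methyltransferases that modify lysines of the elongation factors were divided. EEF1AKMT3 had 16.3, 15.7 and 15.7 CPM in shNT and 10.2, 9.32 and 8.33 CPM in shYES1, a fall of 1.72-fold (standard error 0.09 on the log2 scale, edgeR adjusted p = 1.58e-10). EEF2KMT, which methylates eEF2, had 6.38, 5.3 and 5.83 CPM in shNT and 8.7, 8.04 and 9.76 CPM in shYES1, a rise of 0.62 (standard error 0.12, edgeR adjusted p = 8.31e-06). The groups were apart for both genes at these low levels. EEF1AKMT2 fell 1.39-fold (edgeR adjusted p = 0.000815), and EEF1AKMT1, with 45 to 71 reads per library, was not called.

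**Figure D3:**
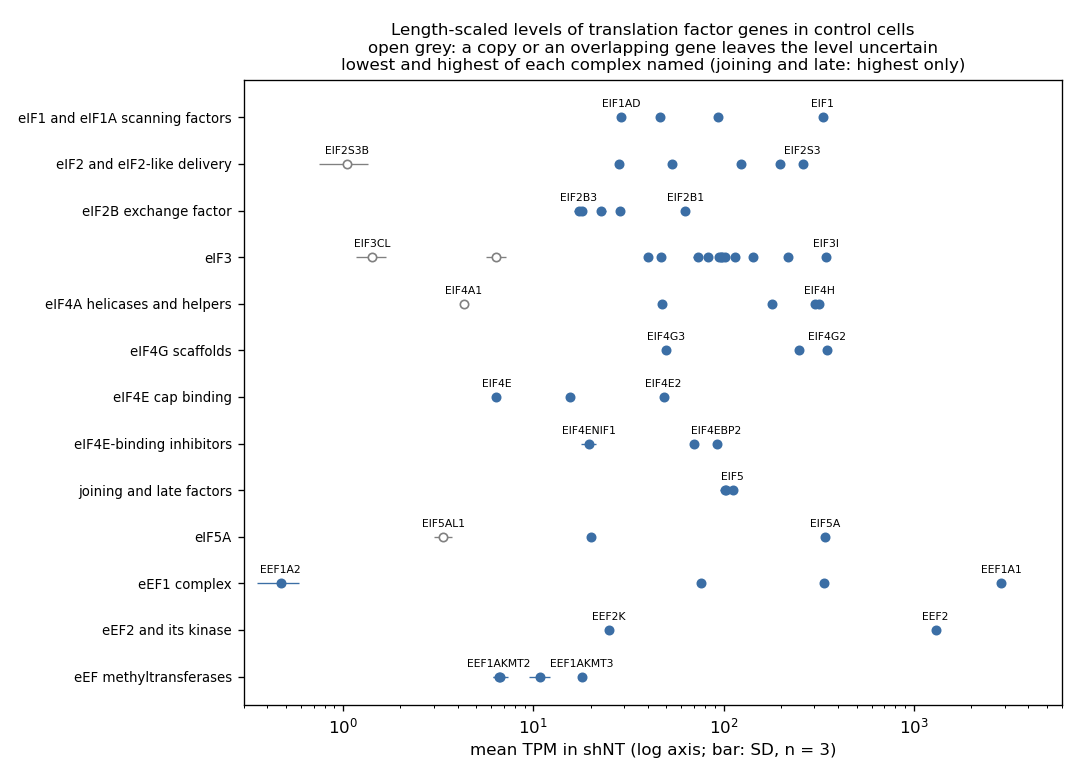
Mean TPM (log axis) of translation factor genes in the 3 shNT libraries, by complex, with bars of 1 SD. Open grey points are EIF4A1, EIF3C, EIF3CL, EIF5AL1 and EIF2S3B, whose level is uncertain because of a copy or an overlapping gene. Other genes that share exon bases with another gene, such as EIF3L, are drawn filled. EEF1A1 and EEF2 lie at 2876 and 1300.3 TPM, the eIF2B subunits lie between 17.4 and 62.8 TPM, and EIF4E is the lowest of the 3 tested cap-binding genes at 6.39 TPM.

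For 8 pairs of paralogues the log2 ratio of their CPM (with a prior count of 1) was compared between groups by a two-sided exact permutation test over the 6 libraries, which with 3 against 3 cannot give a p under 0.1, so no pair could pass a threshold of 0.05 and the values are a description. EIF4EBP1 relative to EIF4EBP2 was lower in every shYES1 library than in every shNT library, with a mean log2 ratio of -3.15 ± 0.0459 in shNT and -3.77 ± 0.134 in shYES1 (SD, n = 3, exact p = 0.1). EIF4G1 relative to EIF4G3 was also lower in every shYES1 library, at 2.11 ± 0.0623 in shNT and 1.75 ± 0.0340 in shYES1 (exact p = 0.1, n = 3). EIF4E relative to EIF4E3 was higher in each, with a difference of 0.37. The groups did not overlap either for EIF4E with EIF4E2 (difference -0.082) and EIF1 with EIF1B (-0.13), and these 5 pairs had the smallest possible exact p, 0.1, and a Benjamini-Hochberg value of 0.16 over the 8 pairs. For EIF5A with EIF5A2 the difference was -0.039 (exact p = 0.6), for EIF4A1 with EIF4A2 -0.078 and for EEF1A1 with EEF1A2 -0.86 (exact p = 0.2 each), and these groups overlapped.

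A further feature was read from the annotation. Earlier results of these data had singled out the sequence CCTTTC in 3′ untranslated regions, so its relation to the changes below is a description of the members and no independent evidence. Read on the transcript strand, the longest annotated 3′ untranslated region of at least 50 bases held CCTTTC in 25 tested members and lacked it in 33, and EEF1B2 had no such entry. Of the 25 genes 15 were lower (60%), 7 higher (28%) and 3 not called, with a median log2 fold change of -0.32. Of the 33 genes 8 were lower (24.2%), 12 higher (36.4%) and 13 not called, with a median of 0.060. Of the 5434 tested genes with the sequence, 44.3% were lower and 30.6% higher, with a median of -0.082. Of the 6494 tested genes without it, 26.2% were lower and 41.7% higher, with a median of 0.090. It was present in 8 of the 10 largest falls, among them EIF3A, EIF3B, EIF3J, EIF4B and EIF4H, and absent from EEF1AKMT3. Among the 10 largest rises it was present in 4 (EIF4E, EIF4E2, EIF2B3 and EEF2KMT) and absent from 6, including all 3 eIF4G genes. Whether the sequence takes part in any change was not tested.

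**Figure D4:**
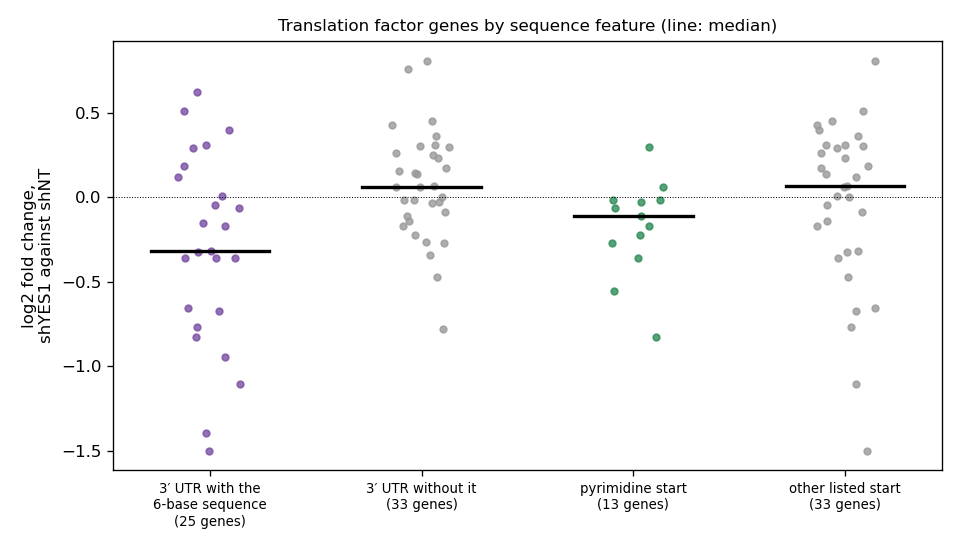
Log2 fold change (shYES1 against shNT, edgeR) of tested translation factor genes, split by the 6-base sequence in the longest annotated 3′ untranslated region and by a pyrimidine run at an annotated start; each point is a gene and lines are medians. The 25 genes with the sequence have a median of -0.32 and the 33 without it 0.060, and the 13 genes with a pyrimidine start have a median of -0.11 beside 0.065 for the 33 others.

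The regulators that sit upstream of these factors were read from lists of other translation genes. Of 12 genes of mTORC1 and MNK signalling to eIF4F, 7 were higher (58.3%, beside 32.5% of all genes), 2 lower (16.7%, beside 32.8%) and 3 not called, with a median log2 fold change of 0.13. MKNK2, a kinase that phosphorylates eIF4E, had 78.6, 76.1 and 76.9 CPM in shNT and 173, 176 and 177 CPM in shYES1, a rise of 1.19 (standard error 0.034, edgeR adjusted p = 3.52e-32). MTOR, the kinase that phosphorylates the eIF4E-binding proteins, rose by 0.51 from 97.9 to 107 CPM to 143 to 148 CPM. RPS6KB1, the S6 kinase that phosphorylates EIF4B, fell by 0.63 on the log2 scale from 62.3 to 70.1 CPM to 40.5 to 44.6 CPM, and PDCD4, an inhibitor of eIF4A, fell by 0.45. The list therefore holds both activators and inhibitors that moved.

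Of 10 eIF2 kinase and phosphatase genes 6 were lower, 2 higher and 2 not called, so 80% were called, beside 65.3% of all genes. EIF2AK4, the amino acid sensor GCN2, rose by 0.36 and PPP1CA, a catalytic phosphatase subunit, by 0.34. NCK1, an adaptor that brings phosphatase to eIF2, fell by 0.54 on the log2 scale and PPP1CB by 0.28. Of 8 poly(A)-binding proteins and partners 4 were higher and 3 lower (87.5% called). PABPC1, which binds the poly(A) tail and eIF4G, fell by 0.31 on the log2 scale, with 931, 880.1 and 955 CPM in shNT and 761, 724 and 745 CPM in shYES1, and PABPC4 fell by 0.24. LARP4 rose by 0.46, and PAIP2B rose by 1.24 from 0.0808, 0.757 and 0.57 CPM in shNT to 1.1 to 1.23 CPM in shYES1 (edgeR adjusted p = 0.00325). PAIP2B had between 1 and 24 reads per library, and its call was lost without shNT sample 1 (log2 fold change 0.81, adjusted p = 0.0524). The 3 lower genes were PABPC1, PABPC4 and PABPN1, the 4 higher genes were PAIP2, PAIP2B, LARP4 and LARP4B, and PAIP1 was not called.

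Of 10 helicases and other initiation helpers 5 were higher, 1 lower and 4 not called (60% called, beside 65.3% of all genes). CTIF, a scaffold for the nuclear cap-binding complex, rose by 0.53 and DENR, a reinitiation factor, by 0.44, while NCBP1, a subunit of that cap-binding complex, fell by 0.52 on the log2 scale. Of 11 termination, recycling and rescue genes 4 were higher and 4 lower (72.7% called). ETF1, the release factor that reads stop codons, fell by 0.58 on the log2 scale and GSPT2 by 0.43, while the GTPases GTPBP1 and HBS1L rose by 0.52 and 0.36. ETF1 had 170.1 to 179 CPM in shNT and 113 to 119.7 CPM in shYES1, with no overlap.

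Of 9 genes that make the hypusine of eIF5A and the diphthamide of eEF2, 3 were higher, 2 lower and 4 not called (55.6% called, beside 65.3% of all genes). DOHH and DHPS, which together make hypusine, rose by 0.61 and 0.43, both passing the threshold. Of the 7 diphthamide genes, DPH7 and DPH6 fell by 0.44 and 0.37 on the log2 scale, DPH3 rose by 0.21, and DPH1, DPH2, DPH5 and DNAJC24 were not called. The call of DPH6 was lost with DESeq2 (adjusted p = 0.0684) and in edgeR without shNT sample 2 (0.0520) or shYES1 sample 3 (0.0706). DOHH had 5.83 to 5.9 CPM in shNT and 7.92 to 10.7 CPM in shYES1, while DHPS had 35 to 38.4 CPM and 48.2 to 50.1 CPM. Of 11 mitochondrial translation factors 5 were higher, 3 lower and 3 not called (72.7% called), and 18.2% passed the test against 1.2-fold, beside 36.4% of all genes. MTIF3 and GFM2 rose by 0.44 and 0.43, and GUF1 and MTRFR fell by 0.28 and 0.20 on the log2 scale. The call of MTRFR (edgeR adjusted p = 0.0224) was lost without shNT sample 1 (0.119), shNT sample 2 (0.0622) or shYES1 sample 1 (0.112), and with DESeq2, library-size scaling or no low-count filter. Of 3 selenocysteine genes, SECISBP2 fell by 0.46 on the log2 scale, the elongation factor EEFSEC by 0.23 (edgeR adjusted p = 0.0116), and SEPSECS was not called. The call of EEFSEC was lost without shNT sample 3 (adjusted p = 0.0527) or shYES1 sample 3 (0.0873), and with library-size scaling (0.145), DESeq2 (0.0893) or unstranded counts (0.133).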

How the data were processed

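RNA-seq of 6 libraries was analysed (3 shNT, 3 shYES1). Per the labels' protocols, RNA was purified with Trizol and a column, and libraries came from a KAPA stranded poly(A) kit. The authors deposited raw read counts by gene, not normalized. STAR 2.5.1b, Trimmomatic 0.35 and CASAVA 1.8.2 are named with GRCh38 in the submitters' processing notes. Their annotation release is not stated in the sources used here. The reverse-strand counts were used, since 93.5% to 94.0% of stranded gene reads fell there. The 4 entries that name no gene held 19.8% to 20.3% of reads and were left out. Of 58219 identifiers 57437 had a symbol and 57878 are in GENCODE 29, the source of exon lengths, 3′ untranslated regions and coordinates.

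Counts were tested in R 4.3.3 with edgeR 4.0.16 (filterByExpr with minimum count 10 and total 15, TMM, robust quasi-likelihood fit, group as the only term), and p-values were adjusted by Benjamini-Hochberg over all genes tested. Standard errors are the size of the log2 fold change divided by the square root of F, which is approximate. The common coefficient of variation was 2.1%, and the p-values measure only how these samples vary, which may be technical. TPM used the union of exons. The step was tested on simulated data. Alternatives included DESeq2 1.42.0 and limma 3.58.1.

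The members and lists were chosen with earlier results of these data known, so no p was adjusted over a list. Named were the 10 largest rises and falls among called members, the member with the highest TPM of each complex, the paralogue pairs, and up to 2 rises and 2 falls in each other list. Reads that map equally well to several places, or to exons of several genes, are counted for none.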

Additional observations from a re-analysis of the deposited data

How the results depend on the processing

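With RLE scaling, limma-voom and unstranded counts, each of the 59 tested members kept its side of the threshold, and with a filter at 1 CPM in 3 libraries each of the 57 still tested did. No called member changed sign under any alternative, while uncalled members near 0 did: 1 with RLE scaling (EIF3C), 8 with library-size scaling and up to 5 with a library left out. Leaving out each library in turn left 41 to 45 members called (18 to 20 higher, 23 to 25 lower) and 8751 to 9078 of all genes. Shared replicate numbers gave no clear sign of pairing. Deviations of same-numbered samples from their group means correlated at 0.00956, 0.0245 and 0.0131, and those of differently numbered samples at -0.0402 to 0.0261. In shNT, sample 1 correlated best with another number, and samples 2 and 3 with their own. With the replicate number as a block, 44 members (20 higher, 24 lower) and 9297 genes were called, and among the members only EEF1A2 gained a call.

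The test against 1.2-fold, chosen after seeing the data, called 5185 genes (2324 higher, 2861 lower) and 23 members (7 higher). The share of all genes that passed was 36.4%. It called 3 of 10 eIF2 kinase and phosphatase genes (30%), 4 of 8 poly(A)-binding genes (50%) and 4 of 11 termination genes (36.4%). Of 9 hypusine and diphthamide genes 3 passed (33.3%), of 11 mitochondrial genes 2 (18.2%) and of 3 selenocysteine genes 1 (33.3%). In the mTORC1 and MNK list 6 of 12 passed (50%), and among helicases and other initiation helpers 4 of 10 (40%). In the list of hypusine and diphthamide genes 8 were called with library-size scaling. Of the mitochondrial genes 4 were called with DESeq2 and 5 to 7 with a library left out (5 without shNT sample 2). Of the selenocysteine genes 1 was called with library-size scaling, DESeq2 and unstranded counts, and 1 to 2 with a library left out (1 without shNT sample 3 or shYES1 sample 3), and the call lost was that of EEFSEC.

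Scaling moved every median together: that of all genes was 0.0921 with library size and -0.0940 with TMM on genes without CCTTTC in the 3′ untranslated region, the second chosen after seeing the data. In that order the medians were 0.0985 and -0.0878 (reversed) for eIF1 and eIF1A, 0.0733 (reversed) and -0.113 for eIF2, 0.359 and 0.173 for eIF2B, -0.0363 and -0.223 for eIF3, and 0.154 and -0.0319 (reversed) for eIF4A with its helpers. They were 0.547 and 0.360 for eIF4G, 0.405 and 0.219 for eIF4E, -0.225 and -0.411 for the eIF4E-binding genes, 0.216 and 0.0292 for the joining and late factors, and 0.236 and 0.0490 for eIF5A. They were -0.161 and -0.348 for eEF1, -0.200 and -0.386 for eEF2 with its kinase, -0.157 and -0.343 for the methyltransferases, and 0.0660 (reversed) and -0.120 for all members. EIF2A stood at 0.081 with library size (adjusted p = 0.0259) and at -0.11 with scaling on genes without CCTTTC (0.00354), and EIF2S1 at -0.085 with scaling on genes without CCTTTC (adjusted p = 0.0457), where the first and the last are reversed. Calls were also gained by EIF4A1, EIF4A3, EIF3K and EIF6 (higher, library size) and by EIF2D, EIF4E3 and EIF3M (lower, the other scaling).

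The median of eEF1 was -0.347 with the 1 CPM filter, where EEF1A2 was not tested, and -0.178 with unstranded counts. That of all members was -0.0165 with DESeq2, -0.0163 without the low-count filter and -0.0158 with unstranded counts. With a library left out the medians ran from -0.0385 to 0.0275 for eIF1 and eIF1A (reversed without shYES1 sample 1), from -0.0459 to 0.00393 for eIF2 (reversed without shNT sample 3), and from 0.0369 to 0.0806 for eIF4A. They ran from 0.435 to 0.461 for eIF4G, from 0.271 to 0.366 for eIF4E, from -0.335 to -0.173 for the methyltransferases and from -0.0516 to -0.00430 for all members. The cause of these shifts was not tested. Prior counts of 0.5 and 2 turned no paralogue pair. With the longest transcript as length, 12 of the highest-level genes moved by more than their SD in TPM, for example EIF5A to 479.9 TPM. Depth limits EEF1A2, EIF2S3B and EIF3CL most.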

Other observations

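Pseudogenes of these genes were assigned few reads. The 153 annotated pseudogenes of the families held 3114, 3729 and 4356 reads in shNT samples 1 to 3 and 4215, 2721 and 4487 reads in shYES1 samples 1 to 3. The 49 pseudogenes of EEF1A1 held most of them, at 228, 256 and 248 CPM in shNT and 231, 208 and 208 CPM in shYES1, and these ranges overlap. The 9 pseudogenes of EIF4B held 6.38, 7.57 and 6.78 CPM in shNT and 4.08, 3.76 and 3.58 CPM in shYES1, lower in every shYES1 library, as EIF4B itself was. The 13 pseudogenes of EIF4A1 held 53 to 148 reads per library, about as many as EIF4A1 with its 79 to 154. The read-through genes that cover EEF1G and EIF4A1 held few reads: AP002990.1 had 0 to 3 and SENP3-EIF4A1 had 0 to 3 per library. Reads that lie in exons of both genes, or that map equally well to a gene and its pseudogene, are not in any of these values.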
